A study of Mus musculus with 8 samples.

Results

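Extracellular nucleotides and their breakdown products act on T cells in tumors through a small set of surface proteins, and 7 genes that encode such proteins were followed here in the 55335 genes counted by RNA-seq. They were *Entpd1*, *Nt5e*, *Cd38*, *Adora2a*, *P2rx4*, *P2rx7* and *P2ry14*, taken as the rows of the count table that carry these symbols. All 7 passed the filter on low counts that left 15378 genes. The genes were chosen from the contrast between wildtype and LSD1-deficient cells of these same libraries, so their differences in that contrast are given as a description, without a test.

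The cells were tumor-infiltrating T cells (TILs) sorted as CD8+CD44+PD-1+ from implanted tumors of MC38, a mouse colon carcinoma line. The 4 wildtype samples (WT, S1 to S4) came from *Lsd1*f/f mice, and the 4 knockout samples (KO, S5 to S8) from *Cd4-Cre*+*Lsd1*f/f mice, all on the C57BL/6 strain, aged 6 to 10 weeks at use according to the methods. Both genotypes carry the floxed *Lsd1* alleles (gene symbol *Kdm1a*), and the Cre, driven from *Cd4* regulatory sequence, acts in developing T cells and therefore in both the CD4 and the CD8 lineage. A WT sample was a pool of 2 mice and a KO sample came from 1 mouse, and between 10000 and 20000 cells were sorted for each. Tumors were taken on day 18 according to the sample labels, whereas the design text of the series gives day 14. No control with Cre and unfloxed *Lsd1* was analysed here.

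ATP released by dying or activated cells opens P2X channels and is degraded at the cell surface. CD39, the product of *Entpd1*, converts ATP and ADP to AMP, and CD73, the product of *Nt5e*, converts AMP to adenosine, which raises cyclic AMP in T cells through the receptor encoded by *Adora2a*. CD38 consumes NAD outside the cell and feeds a second route toward AMP and adenosine, while P2Y14 is a G protein-coupled receptor for UDP-glucose and related UDP-sugars. CD39, CD73 and CD38 are all known surface proteins of T cells in tumors, and CD39 is widely used as a marker of tumor-reactive and exhausted CD8+ T cells.

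Total counts on genes ranged from 11657807 to 30295406 per library, and 3 counts corresponded to 0.106 to 0.25 CPM (counts scaled to the library's total and its TMM factor). *Kdm1a*, the targeted gene, was at 42.7 to 47.2 CPM in WT and 25.2 to 34.8 CPM in KO over the whole gene, with no overlap and a log2 fold change of -0.55 (SE 0.14, adjusted p = 0.0163, edgeR quasi-likelihood test). The sorted population was checked by its own markers: *Cd8a* was at 1340 ± 93.3 CPM in WT and 1109 ± 107 CPM in KO (SD, n = 4 each), and *Cd3e* at 393 ± 30.2 and 328 ± 29.1 CPM. All 8 markers of CD8 T cells were tested and only *Cd44*, itself a sort marker, was called, higher in KO (433 ± 39.7 and 785 ± 136 CPM, log2 fold change 0.86). Of the other 7, *Cd8b1* had the lowest log2 fold change, -0.39 (adjusted p = 0.0158, no overlap), and *Cd3d* was at 0.02. A gene was called when its fold change was above 1.5 and its Benjamini-Hochberg adjusted p over all 15378 genes was under 0.01. This rule called 2.91% of the tested genes higher in KO and 1.99% lower, or 4.90% in either direction.

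Of the 7 genes, 2 were past this rule as higher in KO (*P2ry14* and *Nt5e*), 1 as lower (*P2rx7*), and 4 were not past it (*Entpd1*, *Cd38*, *Adora2a* and *P2rx4*). In the same 3 genes the WT and KO libraries did not overlap, a pattern that 17.3% of all tested genes showed. As the genes were chosen from this contrast, these counts carry no information beyond that choice. Of the 2 enzyme genes on the route from ATP to adenosine, *Nt5e* was past the rule and *Entpd1* was not. Of the 2 ATP-gated channel genes, *P2rx7* was past it and *P2rx4*, which had the same sign, was not. Whether the genes of a pair differed from each other was not tested.

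**Figure D1:**
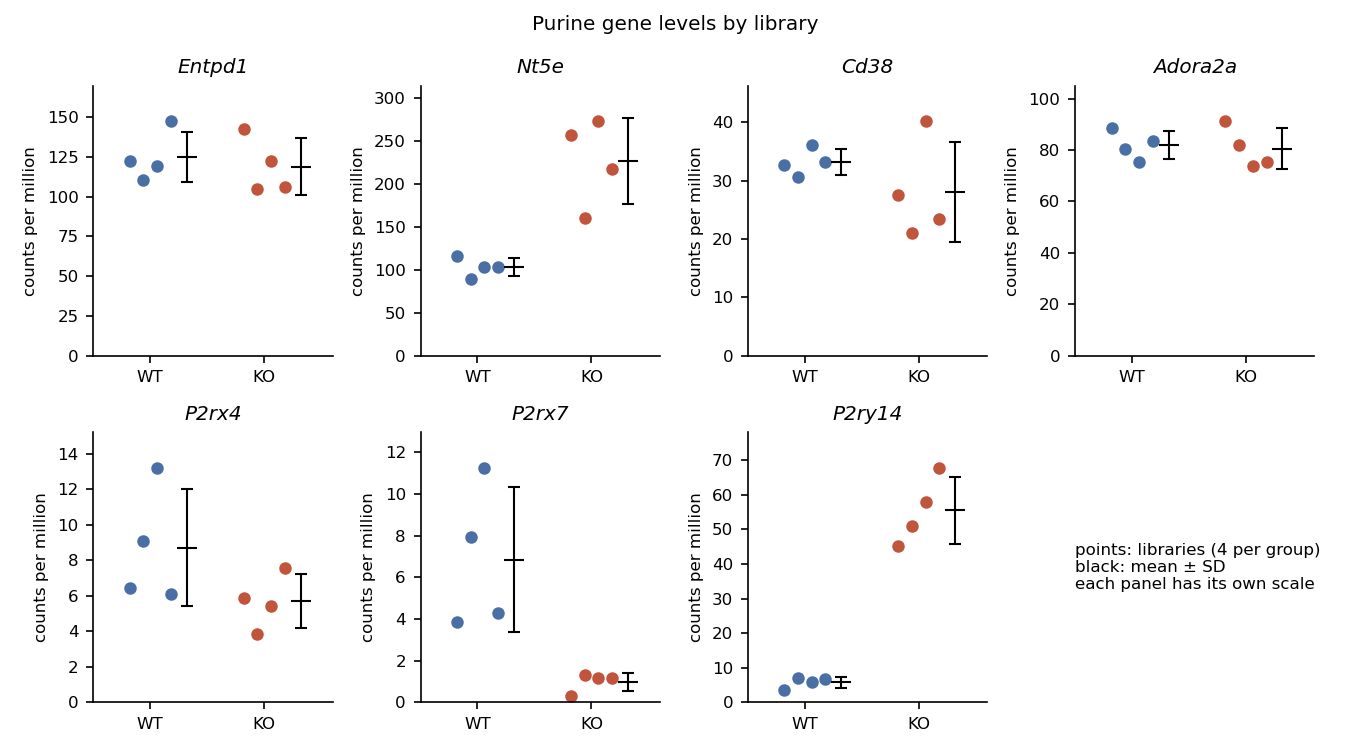
Level of each of the 7 genes in CPM (vertical axis, from 0, a separate scale in each panel) in the 4 WT (blue) and 4 KO (red) libraries, with the mean and SD in black. The groups are apart in *Nt5e*, *P2rx7* and *P2ry14* and share their range in the other genes.

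*Entpd1* (ENSMUSG00000048120.16, chromosome 19 of GRCm38, 40612366 to 40741602, plus strand) was among the most abundant of the 7 genes in both genotypes. It was at 123, 110, 119 and 147 CPM in the WT libraries S1 to S4 and at 142, 104, 122 and 106 CPM in the KO libraries S5 to S8, and all values by library are in this order. The groups overlapped almost completely, with means of 125 ± 15.8 CPM in WT and 119 ± 17.7 CPM in KO (SD, n = 4 each). Its log2 fold change, KO minus WT, was -0.07 (SE 0.12).

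*Nt5e* (ENSMUSG00000032420.8, chromosome 9, 88327197 to 88372092, plus strand), the next enzyme of the pathway, was at 116, 89.9, 103 and 104 CPM in WT. In KO it was at 257, 160, 273 and 217 CPM. Each KO library lay above each WT library, although S6 was much closer to WT than the other 3 were. The means were 103 ± 10.6 and 227 ± 50.2 CPM (SD, n = 4 each), a 2.20-fold higher level in KO and a log2 fold change of 1.14 (SE 0.14). Leaving out any 1 library kept it past the call rule, at log2 fold changes from 1.04 to 1.27.

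*Cd38* (ENSMUSG00000029084.5, chromosome 5, 43868553 to 43912375, plus strand) was at 32.7, 30.6, 36.1 and 33.2 CPM in WT and at 27.5, 21.01, 40.1 and 23.5 CPM in KO. In KO, 3 libraries lay below all WT libraries, and S7 lay above them. The spread was therefore wider in KO (28.0 ± 8.50 CPM) than in WT (33.1 ± 2.25 CPM; SD, n = 4 each), and the log2 fold change was -0.24 (SE 0.19). A WT library pooled 2 mice and a KO library came from 1, so these spreads are not like for like. The span of *Cd38* also holds *Gm16014*, an intronic transcript of the same strand with 4.19% as many counts.

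*Adora2a* (ENSMUSG00000020178.6, chromosome 10, 75316877 to 75334784, plus strand), the adenosine receptor of this set, was the most even of the 7 genes. It was at 88.4, 80.3, 75.5 and 83.6 CPM in WT and at 91.2, 81.9, 73.7 and 75.3 CPM in KO. The highest and the lowest library were both KO, and the log2 fold change was -0.03 (SE 0.11).

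The ATP-gated channels *P2rx4* and *P2rx7* lie 16112 bases apart on the plus strand of chromosome 5 and were the scarcest of the 7 genes in KO cells. P2X7 opens at high ATP concentrations and can drive calcium entry, shedding of surface proteins and death of T cells, whereas P2X4 responds to lower ATP concentrations and is also found in lysosomes. *P2rx7* (ENSMUSG00000029468.17, 122643911 to 122691432) was at 3.84, 7.96, 11.3 and 4.29 CPM in WT and at 0.328, 1.29, 1.17 and 1.16 CPM in KO. All KO libraries lay below all WT libraries, and WT varied by itself, with S2 and S3 highest. The counts behind these levels were 66, 146, 138 and 52 in WT and 5, 16, 14 and 33 in KO. For the highest KO library, S6, the exact 95% Poisson interval ran from 0.739 to 2.10 CPM, and for the lowest WT library, S1, from 2.97 to 4.88 CPM (counting error only). For the 5 counts of S5, the lowest KO library, it ran from 0.107 to 0.766 CPM. The group means were 6.84 ± 3.48 and 0.988 ± 0.444 CPM (SD, n = 4 each), a 6.88-fold lower level in KO and a log2 fold change of -2.78 (SE 0.52). *Mir8115*, which shares 119 exon bases with it, had 0 counts. Leaving out S2 or S3 took *P2rx7* out of the call rule, at log2 fold changes of -2.70 and -2.44.

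*P2rx4* (ENSMUSG00000029470.15, 122707544 to 122729738) was at 6.45, 9.10, 13.2 and 6.10 CPM in WT and at 5.91, 3.88, 5.43 and 7.56 CPM in KO. Its groups overlapped, since S8 lay above S1 and S4, and its log2 fold change was -0.60 (SE 0.33). Within WT the libraries took nearly the same order for both channel genes, with S3 first and S2 next. Without S3 the log2 fold change of *P2rx4* was -0.34.

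*P2ry14* (ENSMUSG00000036381.13, chromosome 3, 59113855 to 59153618, minus strand) showed the widest difference of the set. It was at 3.49, 7.19, 5.79 and 6.76 CPM in WT and at 45.2, 50.8, 57.9 and 67.8 CPM in KO. The lowest KO library stood several times above the highest WT library. The means were 5.81 ± 1.66 and 55.4 ± 9.74 CPM (SD, n = 4 each), 9.57-fold higher in KO, with a log2 fold change of 3.26 (SE 0.22). Without any 1 library the log2 fold change stayed between 3.07 and 3.39, past the call rule each time.

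The sequences upstream of the genes that differed most, and of the neighbouring channel gene that was not past the rule, are shown so that the motifs counted in them can be read in place. They were taken from RefSeq promoters (GRCm38.p6), which held 6 of the 7 genes (*Adora2a* was not matched), and were shortened so that each ends before the first annotated exon base in GENCODE. Capitals mark the AP-1 motif TGANTCA, which reads the same on both strands. The *P2ry14* window is chr3:59153619-59153742 (minus strand), the *P2rx7* window chr5:122643677-122643910 (plus) and the *P2rx4* window chr5:122707294-122707543 (plus), each written 5′ to 3′.
P2ry14: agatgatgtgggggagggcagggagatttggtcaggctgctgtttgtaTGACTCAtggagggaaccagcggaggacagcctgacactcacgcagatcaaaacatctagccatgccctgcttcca
P2rx7: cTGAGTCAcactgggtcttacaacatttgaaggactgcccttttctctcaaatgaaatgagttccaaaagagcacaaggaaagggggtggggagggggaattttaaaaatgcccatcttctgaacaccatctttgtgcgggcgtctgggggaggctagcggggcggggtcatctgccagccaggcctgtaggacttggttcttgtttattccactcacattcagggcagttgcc
P2rx4: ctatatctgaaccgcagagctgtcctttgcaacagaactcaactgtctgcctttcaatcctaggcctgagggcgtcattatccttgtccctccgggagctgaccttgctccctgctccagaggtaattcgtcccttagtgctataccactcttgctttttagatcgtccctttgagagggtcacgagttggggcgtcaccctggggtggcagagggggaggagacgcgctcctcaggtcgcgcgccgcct

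The motif occurred 1 time in the *P2ry14* window, 1 time in the *P2rx7* window and 0 times in the *P2rx4* window. It also occurred 0 times in the 250 bases before each RefSeq start of *Nt5e*, *Entpd1* and *Cd38*. These windows were not shortened. Those of *Nt5e*, *Cd38* and the downstream *Entpd1* start lie inside the gene's GENCODE span, so they are not like the printed windows. Of these genes, *Nt5e* was past the call rule. Windows of the printed lengths (124, 234 and 250 bases) in all 32851 RefSeq promoters held the motif in 3.19%, 6.45% and 6.75% of cases. The TCF/LEF core CAAAG, searched on both strands, occurred 0, 1 and 2 times in the *P2ry14*, *P2rx7* and *P2rx4* windows. It was held by 29.6%, 46.6% and 48.6% of all promoters at these lengths. Before each start of *Nt5e* and *Entpd1* the core occurred 0 times, and before the *Cd38* start 1 time. *P2ry14* has 4 RefSeq starts and *P2rx7* has 2. In the 250 bases before the other 3 starts of *P2ry14* the AP-1 motif occurred 1, 0 and 0 times and the core 1, 0 and 3 times, and before the other start of *P2rx7* they occurred 0 and 4 times. These windows were not shortened either, and they lie inside the GENCODE span of their gene. Those of *P2ry14* overlap in part, and the gene-level counts do not show which start was used. A match of letters is a description of the window and not of a bound site.

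To compare the genes with each other, CPM were divided by the kilobases of merged exons, here called the level per length. Merged exons cover all annotated transcripts, from 3062 bases for *Adora2a* to 11059 for *P2ry14*. Orders and ratios between genes therefore depend on this length and on which transcripts were expressed. In WT the order from high to low was *Adora2a* (26.8 ± 1.78), *Entpd1* (22.4 ± 2.84), *Nt5e* (11.997 ± 1.23), *Cd38* (8.52 ± 0.577), *P2rx4* (1.24 ± 0.468), *P2rx7* (1.14 ± 0.583) and *P2ry14* (0.525 ± 0.150), each as mean ± SD over 4 libraries. The ranges of *Adora2a* and *Entpd1* met, as did those of *P2rx4* and *P2rx7* and those of *P2rx7* and *P2ry14*. The other neighbours were apart in range. Within single WT libraries, *Adora2a* was above *Entpd1* and *P2rx7* above *P2ry14* in all 4, whereas *P2rx4* was above *P2rx7* in 2. In KO the order was *Nt5e* (26.4 ± 5.84), *Adora2a* (26.3 ± 2.60), *Entpd1* (21.3 ± 3.16), *Cd38* (7.21 ± 2.19), *P2ry14* (5.01 ± 0.881), *P2rx4* (0.810 ± 0.216) and *P2rx7* (0.165 ± 0.0743). *Nt5e*, *Adora2a* and *Entpd1* overlapped from one to the next, *Cd38* overlapped with *P2ry14*, and *P2rx7* lay below *P2rx4* without overlap. Within single KO libraries, *Adora2a* was above *Entpd1* in all 4, and *Nt5e* above *Adora2a* and *Cd38* above *P2ry14* in 3 each. By this measure *P2ry14* went from the last place in WT to the fifth in KO, where it lay above both P2X genes in all 4 libraries. In CPM, without the length, its KO mean was also above that of *Cd38* (55.4 and 28.0 CPM).

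**Figure D2:**
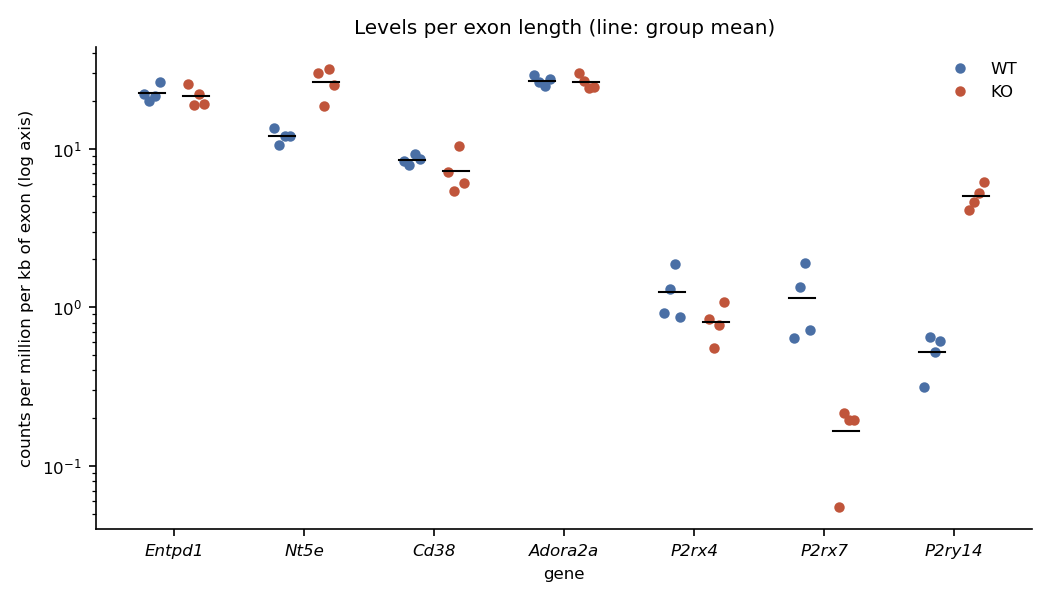
Level per length of the 7 genes (CPM per kb of merged exons, log axis) in WT (blue) and KO (red) libraries, with group means as lines. *Nt5e* moved from 11.997 to 26.4 and came to the level of *Adora2a*, while *P2ry14* went from the lowest mean in WT to above both P2X genes in KO.

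Ratios within a library do not depend on its scaling. The level per length of *Nt5e* over that of *Entpd1* was 0.613, 0.528, 0.563 and 0.456 in WT and 1.17, 0.993, 1.45 and 1.33 in KO. In each WT library *Nt5e* RNA was thus below *Entpd1* RNA per length, and in KO it was near or above it. The mean ratios were 0.540 ± 0.0659 in WT and 1.23 ± 0.197 in KO (SD, n = 4 each). Amounts and activities of the enzymes were not measured. For *P2rx7* over *P2rx4* the ratios were 0.700, 1.03, 1.00 and 0.827 in WT and 0.0654, 0.392, 0.253 and 0.181 in KO. The variation of *P2rx7* among the WT libraries was largely shared with *P2rx4*, so the ratio was more even than either gene, and the KO ratios lay below it without overlap. These ratios rest on the values by which the genes were chosen and were not tested.

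**Figure D3:**
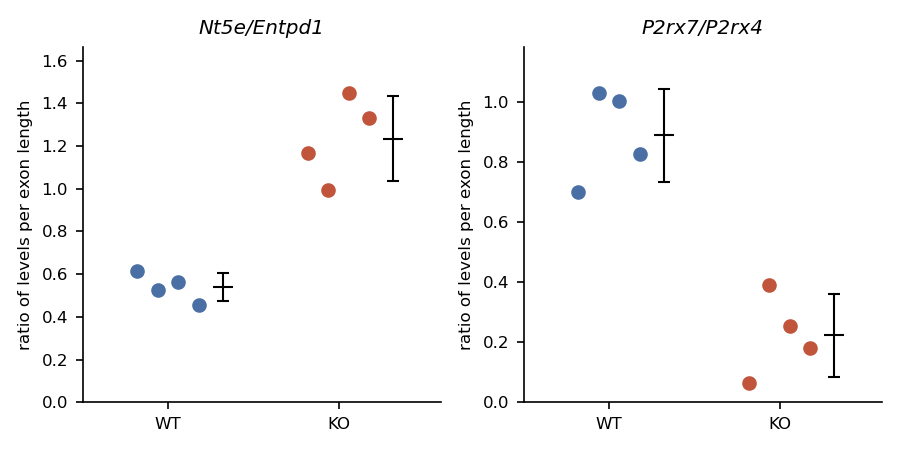
Ratio of levels per length within each library (vertical axes, from 0) for *Nt5e* over *Entpd1* and *P2rx7* over *P2rx4*, in WT (blue) and KO (red), with mean and SD in black. The *Nt5e* to *Entpd1* ratio is at most 0.613 in WT and at least 0.993 in KO, and the *P2rx7* to *P2rx4* ratio is at least 0.700 in WT and at most 0.392 in KO.

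Among the 9238 tested genes with a mean log2 CPM above 3, those whose log2 CPM followed each gene most closely over the 8 libraries were listed by Pearson correlation, as a description. For *P2ry14* they were *Atf6*, *Lgals3* and *Nsg2* (r = 0.995, 0.994 and 0.994), for *Nt5e* *Lsr*, *Med13l* and *Terf1* (r = 0.983, 0.980 and 0.980), and for *P2rx7* *Sdc3*, *Ofd1* and *Ubb* (r = 0.981, 0.972 and 0.970). The 8 libraries fall into 2 genotypes, and for these 3 genes the correlation mainly follows that division. *P2rx4* was most like *Tmem50b*, *Ccdc71* and *Riox1* (r = 0.981, 0.968 and 0.961), *Entpd1* most like *Cox14*, *Cops7a* and *Rin3* (r = 0.973, 0.938 and 0.923), *Cd38* most like *Abcc10*, *Tmem214* and *Spg21* (r = 0.953, 0.947 and 0.939), and *Adora2a* most like *Aifm1*, *Fanci* and *Tmem110* (r = 0.930, 0.927 and 0.911).

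Genes within 100 kb were examined to see whether a difference was shared along the chromosome. *P2ry14* lies in a cluster of P2Y and orphan receptor genes inside the span of *Med12l*, which is on the opposite strand and shares no exon base with it. Among the 4 tested neighbours of *P2ry14*, 0 were called higher and 1, *P2ry13*, was called lower. *Gpr171*, an orphan receptor gene 12034 bases away, was at 130 ± 11.8 CPM in WT and 192 ± 13.6 CPM in KO (SD, n = 4 each) with an adjusted p of 0.00142 in the edgeR quasi-likelihood test, but its fold change of 1.47 was under the limit of 1.5. *Med12l* had a log2 fold change of 0.94 (SE 0.23, adjusted p = 0.0138) and was not called. DESeq2 and edgeR's likelihood ratio test each called 2 of these 4 neighbours, and all 4 were under an unadjusted p of 0.05, as 24.5% of all tested genes were. Beside *P2rx7* and *P2rx4*, the tested neighbours *Camkk2* and *Anapc5* had log2 fold changes of -0.08 and -0.06, and 0 of the tested neighbours of *Nt5e* (4), *Entpd1* (5), *Cd38* (3) and *Adora2a* (3) were called in either direction by edgeR, as by DESeq2. An unadjusted p under 0.05 was found for 2 neighbours of *Entpd1* and 1 of *Adora2a*.

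The rest of the purine and NAD pathway was taken as 95 further genes in 10 lists, of which 93 were matched in the count table and 67 were tested. By the edgeR quasi-likelihood test 5 of them were called higher in KO, 1 was called lower and 61 were not called. Their median log2 fold change was 0.07, beside -0.01 over all tested genes. The lists were written with earlier results of these data known. Many of the remaining receptors and enzymes were at or near 0 counts in these libraries, with 8 of the 93, among them *Entpd4* and *Entpd4b*, at 0 in every library. Whether a count of 0 reflects absence of the RNA from the cells was not tested.

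Of the 9 other P2Y receptor genes 5 were tested, with a median log2 fold change of -2.09, and *P2ry13*, a receptor for ADP, was the 1 called lower. Its counts were 41, 22, 43 and 15 in WT and 0, 0, 0 and 3 in KO, a ratio of summed rates of 45.8 (exact 95% counting interval 15.3 to 225) with an adjusted p of 0.00411. Leaving out any library but S8 took this gene out of the call rule, at fitted log2 fold changes from -5.74 to -5.20. *P2ry6*, a receptor for UDP, was at 2.85, 3.92, 12.6 and 3.05 CPM in WT and 0, 1.45, 0 and 0.281 CPM in KO, and *P2ry12*, another ADP receptor, at 3.25, 3.98, 10.9 and 3.63 CPM in WT and 0, 1.94, 1.75 and 1.41 CPM in KO. Neither was called, with adjusted p of 0.0161 and 0.0783. S3 was highest in WT for all 3. *P2ry10*, a receptor for lysophosphatidylserine by far the most abundant of the family here, was at 306 ± 12.7 CPM in WT and 250 ± 17.8 CPM in KO (SD, n = 4 each), a log2 fold change of -0.29 (SE 0.09, adjusted p = 0.0482) that was not called. Its neighbour in the family, *P2ry10b*, had a log2 fold change of 0.30 (SE 0.25, adjusted p = 0.507) and was not called either.

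The other adenosine receptors were scarce beside *Adora2a*. *Adora2b* was at 1.73 ± 1.33 CPM in WT and 3.63 ± 1.46 CPM in KO (SD, n = 4 each), with an adjusted p of 0.345, *Adora3* was not called, and *Adora1* was detected in 1 library only. Among the other P2X genes only *P2rx5* passed the filter, and it was not called. Of the other surface enzymes that cut or transfer nucleotides, 12 were matched, 4 were tested and 0 were called by either edgeR test or by DESeq2, with 1 under an unadjusted p of 0.05. The most abundant of these was *Enpp1*, which hydrolyses ATP to AMP, at 7.31 ± 3.06 CPM in WT and 10.9 ± 1.82 CPM in KO (SD, n = 4 each). Of 5 genes for intracellular relatives of CD39, 3 were tested and 0 were called by edgeR or DESeq2, and 0 were under an unadjusted p of 0.05. Among them *Entpd5* had a log2 fold change of 0.33 (SE 0.18, adjusted p = 0.269).

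Removal of adenosine had 12 listed genes, 9 of them tested with a median log2 fold change of 0.19, and 1 was called higher. That gene was *Dpp4*, which encodes CD26, the surface protein that in human cells binds adenosine deaminase. It was at 82.8 ± 6.69 CPM in WT and 132 ± 2.38 CPM in KO (SD, n = 4 each), a log2 fold change of 0.67 (SE 0.10, adjusted p = 0.000211). The KO libraries differed from each other by little, from 129 to 135 CPM. Adenosine deaminase itself (*Ada*) was scarce and was not called, nor were the nucleoside transporters *Slc28a2* and *Slc29a1*, which had log2 fold changes of 0.19 and 0.17.

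Downstream of adenosine receptors, the list of the cyclic AMP arm held 19 genes, 18 of them tested, with a median log2 fold change of 0.12. The phosphodiesterase genes *Pde4a* and *Pde4d*, whose products degrade cyclic AMP, were the 2 called, both higher in KO. *Pde4a* was at 18.1, 18.5, 18.1 and 19.4 CPM in WT and at 62.4, 57.0, 39.1 and 47.9 CPM in KO, a log2 fold change of 1.48 (SE 0.16, adjusted p = 1.15e-05). *Pde4d* was at 180, 134, 148 and 130 CPM in WT and 294, 293, 297 and 268 CPM in KO, a log2 fold change of 0.96 (SE 0.11, adjusted p = 1.82e-05). In both the groups were far apart for the spread within them. *Gnas*, which encodes the stimulatory G protein subunit, had a log2 fold change of -0.36 (SE 0.10, adjusted p = 0.0238), and the adenylyl cyclase genes *Adcy7* and *Adcy3* had 0.32 (adjusted p = 0.0560) and -0.50 (adjusted p = 0.0356). These 3 were not called. *Crem*, a gene induced by cyclic AMP, had a log2 fold change of 0.21 (SE 0.12, adjusted p = 0.334).

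**Figure D4:**
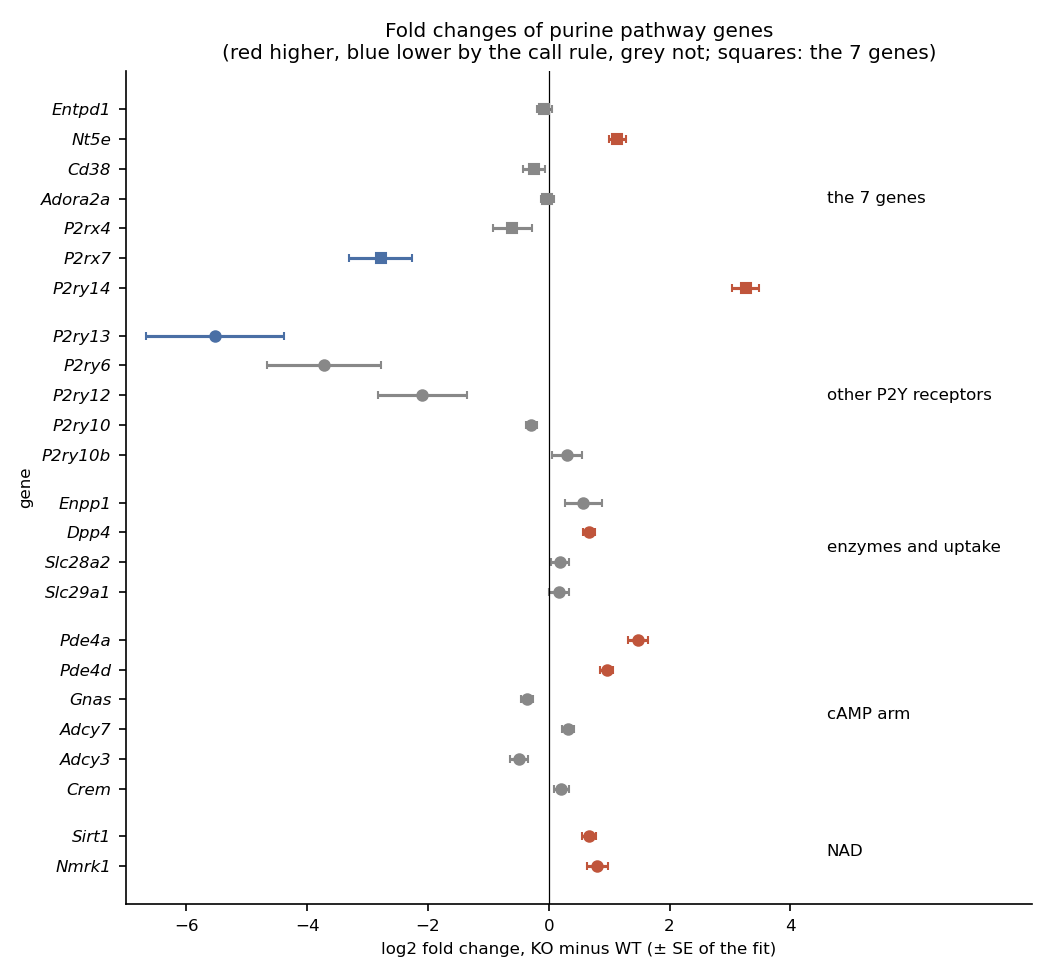
Log2 fold change (KO minus WT, horizontal axis, with the SE of the fit) of the 7 genes (squares) and of the other pathway genes named on its axis (circles), red where called higher, blue where called lower and grey where not. *P2ry14* is at 3.26 and *P2ry13* at -5.52, and *Pde4a* and *Pde4d* are the called genes of the cyclic AMP arm.

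On the ATP side, 5 of the 8 genes listed for ATP release were tested (median log2 fold change 0.10) and 0 were called by edgeR or DESeq2, with 0 under an unadjusted p of 0.05, including the channel gene *Calhm2* and the vesicular nucleotide transporter gene *Slc17a9* (log2 fold changes 0.45 and -0.47, adjusted p 0.250 and 0.288). Of 9 genes listed for the known outputs of P2X7, all 9 were tested (median log2 fold change 0.06) and 0 were called by the edgeR quasi-likelihood test, whereas DESeq2 called *Il18* higher and *Il1b* lower. *Il1b* had a log2 fold change of -1.32 (adjusted p = 0.0174). *Il18* was at 0, 12, 0 and 0 counts in WT and 51, 28, 21 and 64 counts in KO (adjusted p = 0.0423). At an unadjusted p under 0.05, the 67 pathway genes as a whole held 10 higher and 10 lower (14.9% each), beside 12.4% higher and 12.1% lower of all 15378 tested genes.

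For NAD, the substrate of CD38, 11 genes were listed and tested, with a median log2 fold change of -0.05, and 2 were called higher in KO. *Sirt1*, an NAD-dependent deacetylase, was at 55.8 ± 6.88 CPM in WT and 88.7 ± 9.12 CPM in KO (SD, n = 4 each; log2 fold change 0.67, SE 0.12, adjusted p = 0.00163), and was not called without S2, at 0.63. *Nmrk1*, which makes NAD precursor from nicotinamide riboside, was at 38.7 ± 7.51 and 67.8 ± 15.8 CPM (log2 fold change 0.81, SE 0.18, adjusted p = 0.00594), and kept its call only without S1 or S8, with log2 fold changes from 0.69 to 0.85 in the other 6 fits that left out 1 library.

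Markers of other cells were read beside these values, since P2X4, P2X7 and several P2Y receptors are also expressed by macrophages. Of 17 myeloid marker genes 16 were tested, 13 were called lower in KO and 0 higher. Their summed level ran from 477 to 1452 CPM in WT and from 236 to 334 CPM in KO, with S3 highest, and no marker was at 0 in every library. The defining macrophage gene *Csf1r* was at 37.4, 31.0, 82.9 and 28.5 CPM in WT and at 7.42, 9.54, 3.51 and 2.78 CPM in KO. The tested markers that were not called, *Itgam*, *Cd74* and *Cd68*, had log2 fold changes of -0.01, -0.26 and -0.41. The mean log2 CPM over the 16 tested markers, the myeloid score, was 4.45, 4.66, 5.85 and 4.87 in WT and 2.78, 2.93, 2.26 and 2.10 in KO, a difference of -2.44 with p = 0.0286 by the exact two-sided permutation test, the smallest p that 4 against 4 samples allow. The marker list was written with earlier results of these data known, so this p describes the score and is not independent evidence. In a bulk sample, fewer cells of a type and less RNA per cell cannot be told apart.

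*P2rx7* and *P2rx4* were highest in S3, as the myeloid score was, but *P2rx7* in S2 was nearly double the level of S4 while their scores were 4.66 and 4.87. The median log2 fold change of the tested myeloid markers was -2.93, beside -2.78 for *P2rx7* and -0.60 for *P2rx4*. *Nt5e* and *P2ry14* had the opposite sign to the markers. With the score as a covariate in the edgeR fit, log2 fold changes were 3.00 (SE 0.64) for *P2ry14*, 0.82 (SE 0.41) for *Nt5e*, -1.41 (SE 1.41) for *P2rx7* and 0.15 (SE 0.95) for *P2rx4*, and none of them was past the call rule, which 21 genes in all then passed. The scores of WT and KO do not overlap, so score and genotype cannot be told apart in this design. The part of myeloid RNA in the level of *P2rx7* was not tested.

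**Figure D5:**
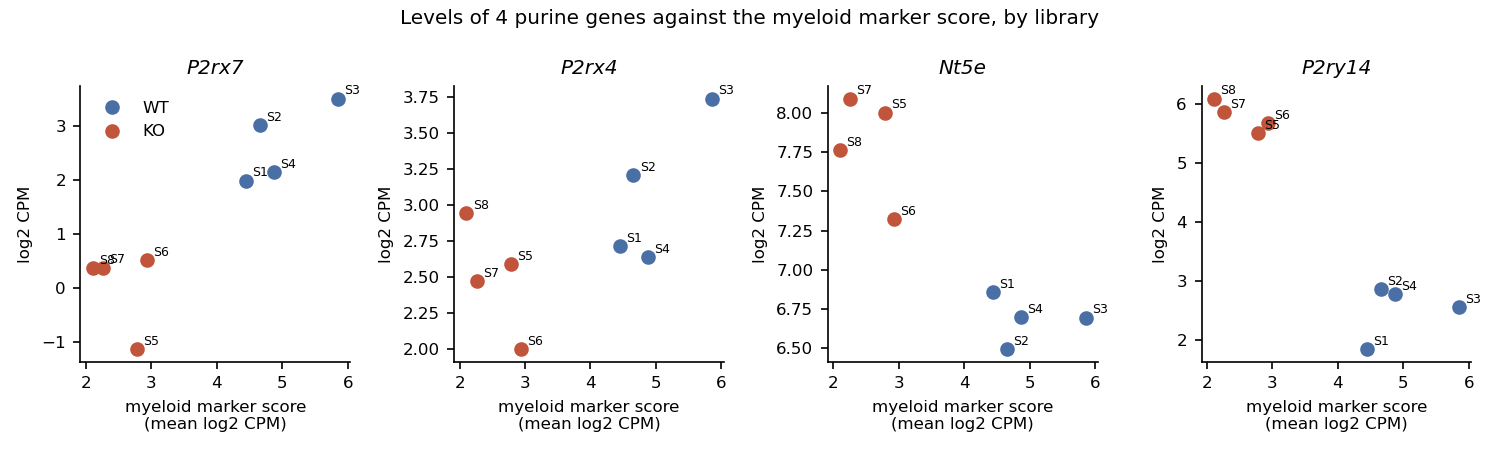
Log2 CPM of *P2rx7*, *P2rx4*, *Nt5e* and *P2ry14* (vertical axes) against the myeloid marker score (mean log2 CPM, horizontal axes) in each library, WT in blue and KO in red. S3 has the highest score and the highest *P2rx7* and *P2rx4*, whereas *P2ry14* is far above the WT libraries in each KO library.

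Other lineages gave smaller sums. The 4 CD4 T cell and regulatory T cell markers summed to 40.1 to 57.0 CPM in WT and 121 to 155 CPM in KO, and *Zbtb7b* and *Cd40lg* were called higher. Most of these sums was *Zbtb7b* alone, at 44.6 ± 6.85 CPM in WT and 102 ± 6.66 CPM in KO (SD, n = 4 each). *Cd4* itself was at 1.86, 6.87, 4.41 and 5.03 CPM in WT and 15.2, 26.2, 7.26 and 8.55 CPM in KO (adjusted p = 0.0161, not called), and *Foxp3* at 1.10 ± 0.933 and 2.42 ± 1.20 CPM (SD, n = 4 each; adjusted p = 0.370). CD73 is known on regulatory T cells. In the KO libraries S5 to S8, *Foxp3* was at 4.07, 2.51, 1.34 and 1.76 CPM and *Nt5e* at 257, 160, 273 and 217 CPM. The part of CD4 T cells in the level of *Nt5e* was not tested. The 3 NK cell markers summed to 7.52 to 16.8 CPM in WT and 25.9 to 75.3 CPM in KO, with *Klrb1b* called higher. Most of these sums was *Klrb1b*, at 10.4 ± 4.16 CPM in WT and 41.6 ± 19.2 CPM in KO (SD, n = 4 each). *Klrb1c* was at 0.459 ± 0.599 and 3.86 ± 1.82 CPM without overlap and was not called (adjusted p = 0.0338, edgeR quasi-likelihood test). DESeq2 and edgeR's likelihood ratio test each called 2 of the NK cell markers higher, and 3 of the CD4 and regulatory T cell markers. *Ncr1* was at 0.0681 ± 0.136 and 0.391 ± 0.429 CPM and did not pass the filter. B cell, dendritic cell, neutrophil, and stromal or tumor cell markers summed to at most 17.9 CPM in any library, and *S100a9*, *Krt8* and *Pdgfrb* were at 0 in all 8.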

How the data were processed

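RNA of sorted CD8+CD44+PD-1+ TILs was sequenced as rRNA-depleted, directional, paired-end libraries. The authors aligned reads with STAR to GRCm38, counted them on genes with featureCounts (strand setting not given in the sources used here) and deposited raw counts per gene, without normalization. Their DESeq2 values were not used. The count columns are numbered and carry neither genotype nor replicate number, so genotypes (S1 to S4 WT, S5 to S8 KO) were taken from the sample names in the study's supplement, and the level of *Kdm1a* was lower in each library so named KO. The study's samples are separate mice or pools of mice. The 7 genes and all lists were chosen with earlier results of these data known.

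Counts of all 55335 genes were filtered (filterByExpr), scaled (TMM) and fitted with glmQLFit and glmQLFTest in edgeR 4.0.16 (R 4.3.3), with no covariates. SEs are log2 fold changes, without sign, divided by the root of their F statistic. Log2 CPM used a prior count of 2. Exon lengths and positions came from GENCODE M21, which matched 55154 gene IDs. Intervals are exact (95%) and describe counting error alone, as reads without molecular identifiers may repeat one molecule. The genes named were the 7, called genes of the pathway lists and others of them needed for context, neighbours within 100 kb, the 3 genes most correlated with each, and *Kdm1a*. *P2ry12*, *P2ry6*, *Adora2b*, *Adora3*, *Adora1*, *P2rx5*, *Ada*, *Enpp1* and *Il18*, which are scarce, were named after their values were seen. Alternatives were other scaling, low-count filters (including 1 CPM in 2 samples), DESeq2 1.42.0, edgeR's likelihood ratio test, an adjusted p of 0.05, GC offsets (mgcv 1.9.3), the myeloid score as a covariate, and leaving out each library.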

Additional observations from a re-analysis of the deposited data

Results flagged for a closer look

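Some libraries stood far from the other 3 of their group in log2 CPM, with a gap to the nearest library past Dixon's 95% limit for its share of the group's range. This held in 8 of the 66 groups examined. Chance flags about 1 in 20 for continuous values, a rate that does not apply to groups with counts at 0. Where the other 3 libraries are tied at 0 counts, as for *P2ry13* and *Il18*, any count gives a share of 1.000. *P2rx7* in S5 was lower than in the other KO libraries, on 5 counts (0.914 of the range). *P2ry13* in S8 was the only KO library with counts, 3 of them (1.000). *P2ry12* was high in S3 among WT (0.836) and at 0 counts in S5 among KO (0.894). *Il18* had counts in S2 only among WT (1.000, 12 counts). Among abundant genes, *P2ry10* was low in S6 (0.929) and *Pde4d* in S8 (0.895). *Enpp1*, a scarcer gene, was low in S8 (0.837).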

How the results depend on the processing

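No paired analysis was possible because the count columns carry no replicate numbers. Scaling, filters, DESeq2, the likelihood ratio test, the threshold and GC offsets left *P2ry14*, *Nt5e* and *P2rx7* past the call rule, at log2 fold changes of 3.20 to 3.26, 1.11 to 1.14 and -2.81 to -2.74. Genes called lower over the whole table were 306, and 461 with DESeq2, 481 with the likelihood ratio test, 531 without the low-count filter and 551 at an adjusted p of 0.05, where 695 rather than 447 were called higher. Other pathway genes called lower were 1, and 2, 3, 4 and 3 in these settings. Leaving out 1 library gave 199 (without S2) to 303 genes called lower, 0 to 1 of the 7 genes called lower (0 without S2 or S3) and 0 to 1 pathway genes called lower. With the myeloid score as a covariate, 21 genes were called higher and 0 lower by edgeR (719 and 638 at an unadjusted p under 0.05), with 0 of the 7 genes and 0 pathway genes called in either direction. Signs then turned for *P2ry12* (0.064), *P2ry6* (0.77), *Adora2b* (-1.75), *Il1b* (1.12) and *P2rx4* (0.15), none of them called. The cause of these changes was not tested. Few counts lie behind *P2rx7*, *P2ry6* and *P2ry13* in KO, 68, 26 and 3 over the 4 libraries.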
